A study of Mus musculus with 12 samples.

Results

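The genes described here carry out fatty acid uptake, activation and oxidation in mouse interscapular brown adipose tissue. They were chosen by name, with earlier results of these data known, as 37 genes listed for 6 steps. Members were kept where at least 10 reads were counted in 3 or more of the 12 libraries. Of the 53379 genes in the count files, 35 of the 37 listed members met that rule. The 8 uptake genes, 5 activation genes, 11 genes of mitochondrial oxidation and 7 genes of peroxisomal oxidation all met it, as did 2 of 3 genes of the carnitine shuttle and 2 of 3 genes of electron transfer. The exceptions were Cpt1b, listed at 0 in every library, and Etfb, listed at 0 to 6 reads. Housekeeping genes such as Rpl13, Rpl24 and Cox4i1 were also listed at 0 in all 12 libraries, so a listing at 0 is not read as absence of the transcript. The annotated exons of Etfb overlap those of Gm45233 on the same strand, and the count files hold ambiguous reads in a row of their own.

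Brown adipocytes burn fatty acids to make heat. Lipoprotein lipase, held on the capillary wall by Gpihbp1, frees fatty acids from circulating triglyceride. The fatty acids cross the membrane with the help of Cd36 and the Slc27a proteins, are bound in the cytosol by Fabp proteins and are joined to coenzyme A by acyl-CoA synthetases. The carnitine shuttle then brings long-chain acyl groups into mitochondria, where dehydrogenases, hydratases and thiolases shorten them in repeated cycles. Peroxisomes shorten very long and branched chains, and the electron transfer flavoprotein with its dehydrogenase passes electrons from the acyl-CoA dehydrogenases to the respiratory chain. Cold exposure is known to draw on these steps in brown fat.

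The samples were 4 groups of 3 libraries from C57BL/6 mice aged 12 weeks and killed at zeitgeber time 9. Wild-type control littermates at room temperature (WT RT), mice lacking Cdk7 in brown adipose tissue at room temperature (KO RT), and both genotypes after 6 hours of cold with food (WT cold, KO cold) were compared. The driver of the knockout and the sex of the mice are not given in the sources used here. Each library came from a pool of RNA from 2 mice, 250 ng each, so the spread between replicates is a spread between pools. Cdk7, the kinase subunit of the general transcription factor complex TFIIH and of the CDK-activating kinase, had 16.4, 15.1 and 16.1 CPM (counts scaled to library size) in the WT RT pools and 4.35, 5.15 and 5.77 in the KO RT pools. In the cold it had 17.95, 16.1 and 15.7 CPM in WT and 5.39, 4.85 and 5.39 in KO, 3.13-fold and 3.18-fold lower at the 2 temperatures, with every KO pool below every WT pool.

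The libraries held 27609717 to 36792555 reads assigned to genes, of which 31.1% to 42.5% fell on mitochondrially encoded genes. Ucp1, the uncoupling protein that defines brown adipocytes, was at 7305 ± 1039 CPM (SD, n = 3) in WT RT, 3969 ± 397 in KO RT, 16089 ± 1384 in WT cold and 4071 ± 304 in KO cold. None of the 9 brown adipocyte markers listed was at 0, and their summed level was 11352 to 14406 CPM in WT RT, 8353 to 9249 in KO RT, 23301 to 26436 in WT cold and 8806 to 9784 in KO cold. Ucp1 is in that sum, with mean levels of 7305 of 12388 CPM in WT RT and 3969 of 8700 in KO RT. Of the 9 markers, 4 were lower and 1 higher in KO at room temperature, and 4 lower and 0 higher in the cold. In whole tissue, fewer cells of a type and less RNA per cell cannot be told apart. A pair of libraries stood apart by skeletal muscle transcripts: the 15 muscle markers summed to 1077 CPM in WT RT replicate 2 and 1401 CPM in KO RT replicate 6, against 39.6 to 496 CPM in the other 10, and none of the 15 was at 0. White adipocyte markers summed to 89.8 to 145 CPM in WT RT, 161 to 206 in KO RT, 307 to 486 in WT cold and 207 to 253 in KO cold (3 of 6 higher in KO at each temperature, 1 lower in the cold). Fibroblast markers summed to 343 to 411, 484 to 552, 414 to 568 and 495 to 680.0 CPM in the same order (4 of 8 higher in KO at each temperature). For these and the later marker lists, 21.0% of all genes were lower and 19.3% higher in KO at room temperature. In the cold 27.8% were lower and 25.9% higher.

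Per kilobase of annotated exon, the most abundant member in WT RT was Fabp4 at 1773 CPM per kb, followed by Acadl at 1003, Acaa2 at 883, Acadvl at 661, Lpl at 596 and Cd36 at 551. Among the 35 members, Cpt1a was lowest at 1.80 CPM per kb and Eci3 next at 3.58. In WT cold the level of Lpl was 1108 and that of Fabp3 742 CPM per kb, from 328 at room temperature. As a share of all reads on nuclear genes, the members took 5.71% to 5.87% in WT RT, 6.00% to 6.15% in WT cold, 4.75% to 5.29% in KO RT and 5.25% to 5.46% in KO cold. Every KO pool thus lay below every WT pool.

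Promoter windows from RefSeq (build GRCm38.p6, 250 bases before to 50 bases after a gene's start, written along the gene, so that the last 50 lie in its first exon or beyond) were found for 29 of the 37 members, 32 windows in all. Of these, 5 are printed because the results turn on these genes. Fabp3, Slc27a2, Acsl1 and Acsl5 rose with cold in WT and had a lower cold response in KO. The Hadhb window is printed because the annotated starts of Hadha and Hadhb, which encode the 2 subunits of the mitochondrial trifunctional protein, lie in it on opposite strands. In the GENCODE annotation of GRCm38 these starts are at positions 30155162 and 30155248 of chromosome 5, with 85 bases between them, marked here by capitals. In the Slc27a2 window the capitals mark a nuclear receptor hexamer, read on the other strand. The Fabp3, Acsl1 and Acsl5 windows held none of the motifs searched.
Hadhb, chr5:30155003-30155302, plus strand: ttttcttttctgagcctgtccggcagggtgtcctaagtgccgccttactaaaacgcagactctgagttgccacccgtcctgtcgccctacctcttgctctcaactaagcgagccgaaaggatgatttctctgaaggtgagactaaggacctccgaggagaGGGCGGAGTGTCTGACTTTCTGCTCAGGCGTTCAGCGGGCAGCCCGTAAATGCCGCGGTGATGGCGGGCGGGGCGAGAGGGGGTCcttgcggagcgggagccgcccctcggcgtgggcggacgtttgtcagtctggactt
Fabp3, chr4:130308488-130308787, plus strand: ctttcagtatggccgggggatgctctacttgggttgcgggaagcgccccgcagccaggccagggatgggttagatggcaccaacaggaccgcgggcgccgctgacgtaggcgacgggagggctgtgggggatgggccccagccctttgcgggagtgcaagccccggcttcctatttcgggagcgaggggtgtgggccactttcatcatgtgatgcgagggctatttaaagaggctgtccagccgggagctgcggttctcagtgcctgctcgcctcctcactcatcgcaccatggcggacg
Slc27a2, chr2:126552774-126553073, plus strand: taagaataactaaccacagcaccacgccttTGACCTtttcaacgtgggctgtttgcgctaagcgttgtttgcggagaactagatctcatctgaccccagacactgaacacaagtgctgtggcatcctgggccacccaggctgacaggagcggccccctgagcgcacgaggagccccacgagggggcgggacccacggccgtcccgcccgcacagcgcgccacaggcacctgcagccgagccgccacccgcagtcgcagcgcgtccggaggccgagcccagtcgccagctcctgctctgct
Acsl1, chr8:46470787-46471086, plus strand: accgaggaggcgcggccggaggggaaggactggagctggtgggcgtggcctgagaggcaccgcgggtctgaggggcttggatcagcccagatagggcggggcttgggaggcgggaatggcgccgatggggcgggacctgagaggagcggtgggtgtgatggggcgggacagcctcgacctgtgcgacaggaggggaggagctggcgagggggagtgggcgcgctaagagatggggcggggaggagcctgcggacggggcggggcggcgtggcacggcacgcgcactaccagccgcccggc
Acsl5, chr19:55253119-55253418, plus strand: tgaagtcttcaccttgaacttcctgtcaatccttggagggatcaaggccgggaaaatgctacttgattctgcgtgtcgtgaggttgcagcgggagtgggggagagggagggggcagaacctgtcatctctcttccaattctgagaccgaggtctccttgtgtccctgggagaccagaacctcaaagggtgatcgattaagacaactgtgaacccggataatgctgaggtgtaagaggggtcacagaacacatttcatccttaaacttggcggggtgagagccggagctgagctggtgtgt

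The hexamer AGGTCA, bound by many nuclear receptors and searched on both strands, was in 6 of the 32 member windows, those of Acadm, Acadvl, Cd36, Cpt1a, Echs1 and Slc27a2, and in 16.3% of 32851 promoter windows of all genes. A direct repeat of AGGNCA with 1 base between the copies, which holds a form of that hexamer, was in 0 member windows and in 0.381% of all windows. The extended form TNAAGGTCA, which overlaps AGGTCA, was in 0 and in 1.28% of all windows, and the cAMP response element TGACGTCA in 0 and in 1.79%. TATAAA was in 0 of the 32 and in 13.6% of all windows. These are matches of letters in a short window and nothing is drawn from them about binding.

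The first question was what loss of Cdk7 did to these genes at room temperature. Genes were called at an adjusted p below 0.05 in edgeR's quasi-likelihood test. It was fitted to all 15208 genes that passed a filter on low counts and adjusted by Benjamini-Hochberg over all of them. This is the main fit below. At room temperature 23 of 35 members were lower in KO and 3 were higher, with a median log2 fold change of -0.38, against 0.00 for all genes. Of all genes 40.4% were called, 21.0% lower and 19.3% higher. The groups of pools did not overlap for 28 members, 24 of them lower in KO, against 48.8% of all genes, 24.9% lower. Without the 2 muscle-rich libraries, 13 members were lower, and the calls of Lpl, Slc27a1, Slc27a2, Fabp4, Acadm, Hadhb, Echs1, Ehhadh, Hsd17b4 and Ech1 were lost. Calls fell for all genes too, to 1946 lower and 1620 higher of 15386, from 3198 and 2940 of 15208. With library totals as the only scaling, which moved the median of all genes to 0.22, 9 were lower (Fabp3, Acsm3, Hadh, Acaa2, Eci1, Eci2, Eci3, Ehhadh and Etfdh) and 5 higher, and the members' median less that of all genes was -0.38 under either scaling. Of all 15208 genes, that scaling called 1267 lower and 4739 higher.

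In the cold, 17 of 35 members were lower in KO and 7 were higher, with a median log2 fold change of -0.20 against 0.01 for all genes. Of all genes 53.7% were called, 27.8% lower and 25.9% higher. The groups of pools did not overlap for 30 members, 21 lower and 9 higher in KO, against 62.7% of all genes, 32.1% lower and 30.6% higher. Library totals alone moved the median of all genes to 0.45, and then 7 members were lower (Lpl, Fabp3, Slc27a2, Acsl1, Acsm3, Eci3 and Ehhadh) and 15 higher, while the members' median less that of all genes was -0.22 under either scaling. Of all 15208 genes, 1073 were then lower and 7881 higher. The 2 KO comparisons share no library, and 14 members were lower in KO at both temperatures while Gpihbp1, Fabp5 and Acaa1b were higher at both. Slc27a1 was lower at room temperature and higher in the cold. Hadha, Decr1 and Acaa1a were called in neither by edgeR's main fit. The KO comparison at room temperature shares the WT RT pools with the comparison of cold in WT, so their values are given side by side and not set against each other.

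The second question was what 6 hours of cold did in each genotype. In WT, 6 members rose (Lpl, Gpihbp1, Fabp3, Slc27a2, Acsl1 and Acsl5, all of uptake or activation) and 13 fell, with a median log2 fold change of -0.12 against -0.03 for all genes. Of all genes 46.3% were called, 23.0% higher and 23.2% lower. The groups did not overlap for 21 members, against 55.4% of all genes. With library totals alone, 5 members rose and 17 fell, and the median of all genes was -0.23. Of all 15208 genes, 1826 then rose and 4813 fell. The calls of Fabp3, Fabp5, Acsl5, Acaa2, Ehhadh and Hsd17b4 were lost without the 2 muscle-rich libraries. Of 15386 genes tested without them, 2848 rose and 2886 fell, against 3503 and 3531 of 15208 with all libraries. In KO, Gpihbp1 and Acsl4 rose and Ehhadh and Acaa1a fell, with a median of 0.05 against -0.02 for all genes, of which 14.8% were called, 7.29% higher and 7.56% lower. The groups did not overlap for 11 members, against 32.8% of all genes. The falls of Ehhadh and Acaa1a were lost without the 2 muscle-rich libraries. All-gene calls then went from 1109 risen and 1149 fallen to 586 and 628. The difference of the 2 cold responses, tested as an interaction, was called for 12 members. It was positive (less fall or more rise in KO) for 7 and negative for 5, against 23.5% of all genes called, 10.6% positive and 12.9% negative. With library totals alone it was positive for 13 and negative for 3, and among all 15208 genes for 2388 and 711. Without the 2 muscle-rich libraries it was positive for Slc27a1 and Acsl3 and negative for Lpl, Fabp3 and Acsl1, and the other 7 calls were lost. All-gene calls then went from 1614 positive and 1967 negative to 840 and 1063.

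**Figure D1:**
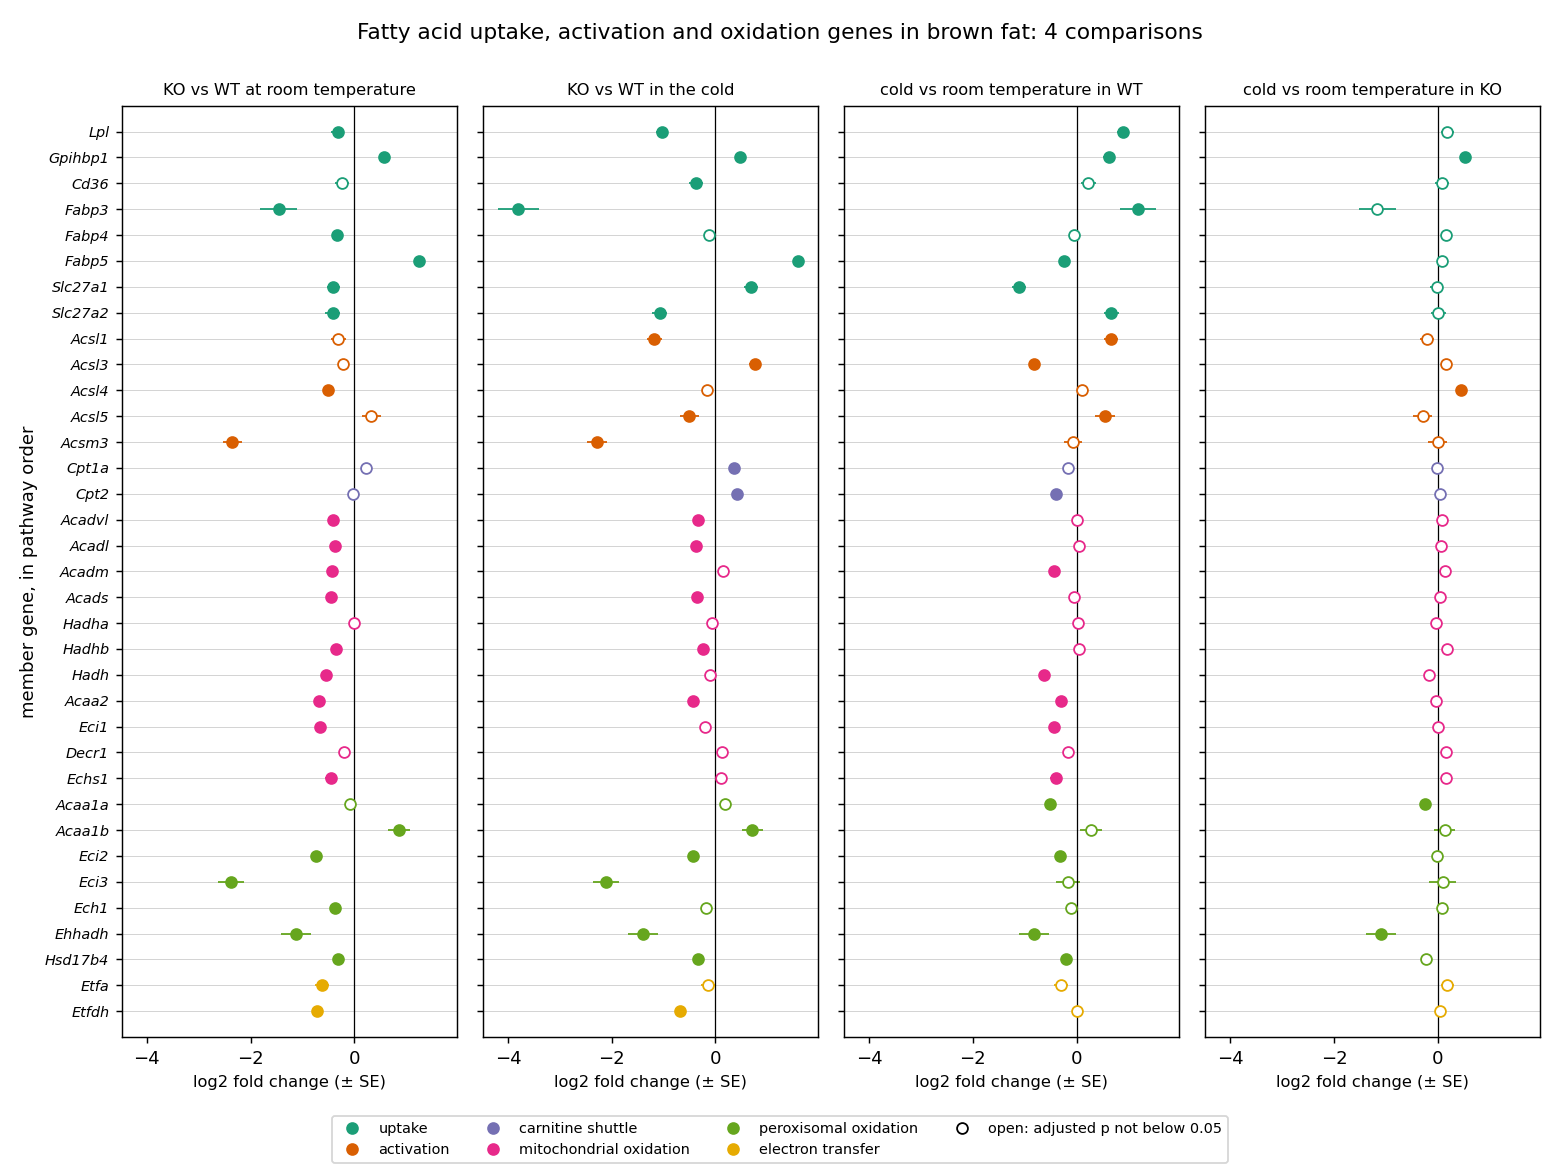
Log2 fold change with its standard error (x axis) of each of the 35 members (y axis, in pathway order, coloured by step) in 4 comparisons. Filled points passed an adjusted p below 0.05. Most filled points of the first panel lie left of 0 (23 of 26), and the last panel, cold in KO, has 4 filled points.

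Among the 8 uptake genes, 5 were lower and 2 higher in KO at room temperature, and 4 lower and 3 higher in the cold. The shares of all genes, for this and the later steps, were 21.0% lower and 19.3% higher at room temperature. In the cold they were 27.8% and 25.9%. With library totals alone, or without the 2 muscle-rich libraries, 1 was lower at room temperature, Fabp3, and 2 higher. In the cold, library totals alone gave 3 lower and 4 higher. With cold 4 rose and 2 fell in WT, and 1 rose in KO. Of all genes, for this and the later steps, 23.0% rose and 23.2% fell in WT, and 7.29% rose and 7.56% fell in KO. Their summed level was 16189.8 to 18576 CPM in WT RT, 12776 to 14458 in KO RT, 22346 to 23923 in WT cold and 14788 to 15921 in KO cold. The calls described as lost without several named libraries were lost when any one of these was left out.

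Lpl, the lipase that frees fatty acids at the capillary wall, had 7695, 5811 and 5216 CPM in the WT RT pools and 12055, 11745 and 11019 in WT cold. The KO pools had 4962, 5159 and 4869 CPM at room temperature and 5557, 5960.0 and 5548 in the cold. All 3 WT cold pools were above all 9 others. With cold Lpl rose 1.86-fold in WT (log2 0.90 ± 0.12 SE, adjusted p = 1.84e-05), against a log2 change of 0.19 ± 0.12 in KO (adjusted p = 0.34). The difference of the responses was -0.71 ± 0.17 (adjusted p = 0.0076), and in the cold Lpl was 2.04-fold lower in KO (adjusted p = 4.51e-06). The room-temperature difference, -0.32 ± 0.12 (adjusted p = 0.046), missed the threshold without any 1 library other than WT RT replicate 3 (-0.37 to -0.15), and with library totals alone (-0.09).

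Gpihbp1, the endothelial protein that anchors Lpl, went the other way with genotype. It had 67.6, 52.7 and 60.4 CPM in WT RT, 87.2, 88.5 and 91.9 in KO RT, 101, 81.6 and 94.3 in WT cold and 119, 131 and 136 in KO cold. Groups did not overlap in any of the 4 comparisons. It was 1.48-fold higher in KO at room temperature (log2 0.57 ± 0.10, adjusted p = 2.90e-04) and 1.39-fold higher in the cold (adjusted p = 6.73e-04). It was the one member called higher with cold in both genotypes, 1.53-fold in WT and 1.44-fold in KO. Of the 10 endothelial markers, 7 were also higher in KO at each temperature and 1 was lower in the cold. With cold 3 rose and 3 fell in WT, against 23.0% and 23.2% of all genes. In KO 1 marker rose and 1 fell with cold, against 7.29% and 7.56%. The endothelial markers' sum was 623 to 749 CPM in WT RT, 875 to 887 in KO RT, 772 to 796 in WT cold and 869 to 1012 in KO cold, none at 0. Their part in the result was not tested.

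The cytosolic fatty acid binding proteins parted from each other. Fabp3, the heart-type form, had 369.7, 197 and 243 CPM in WT RT and 116, 101 and 77.8 in KO RT. After cold exposure it had 503, 767 and 562 CPM in WT and 37.3, 29.2 and 65.6 in KO, all 3 KO pools under the lowest WT pool. Fabp3 was 2.74-fold lower in KO at room temperature (log2 -1.46 ± 0.35, adjusted p = 0.011) and 13.9-fold lower in the cold (-3.80 ± 0.39, adjusted p = 6.09e-05). With cold it rose 2.26-fold in WT (adjusted p = 0.023) and its log2 change in KO was -1.16 ± 0.36 (adjusted p = 0.063), a difference of -2.34 ± 0.50 (adjusted p = 0.011). The WT rise missed the threshold without WT RT replicate 2 or 3, or WT cold replicate 2 (0.98 to 1.10), and the KO change passed it without KO cold replicate 3 (-1.57) and with DESeq2 (-1.15). Skeletal muscle also makes Fabp3. Its markers summed to 173 to 1077 CPM in WT RT, 39.6 to 1401 in KO RT, 72.96 to 172 in WT cold and 43.01 to 305 in KO cold. With their level as a covariate in edgeR's test, the WT rise of Fabp3 missed the threshold (1.08, adjusted p = 0.075). It also did without the 2 muscle-rich libraries (0.99, adjusted p = 0.084). The calls in KO at both temperatures and of the difference were kept without those libraries. The cause of these changes in the WT rise was not tested.

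Fabp4, the adipocyte form, had 7867, 7911 and 8092 CPM in WT RT, 7259, 6155 and 5632 in KO RT, 8023, 7539 and 7563 in WT cold and 7048, 7270.1 and 7012 in KO cold. It was 1.25-fold lower in KO at room temperature (log2 -0.33 ± 0.10, adjusted p = 0.019), a call lost without WT RT replicate 3, or KO RT replicate 5 or 6 (-0.32 to -0.25). Its other changes did not pass the test in edgeR's main fit. In the cold, library totals alone gave 0.32 with a call of higher in KO. Voom called it higher with cold in KO (0.27), with a positive difference of responses (0.33). The KO pools were below the WT pools at both temperatures. Fabp5, the epidermal form, which macrophages also make, had 51.2, 57.6 and 57.5 CPM in WT RT and 134, 126 and 136 in KO RT. After cold the pools had 44.3, 45.1 and 50.7 CPM in WT and 135, 162 and 125 in KO. Every KO pool was above every WT pool. It was 2.38-fold higher in KO at room temperature (log2 1.25 ± 0.10, adjusted p = 1.14e-07) and 3.01-fold higher in the cold (1.59 ± 0.10, adjusted p = 6.24e-09). Macrophage markers were also higher in KO, 11 of 12 at each temperature. With cold 4 of them rose and 0 fell in WT, against 23.0% and 23.2% of all genes. In KO 5 rose and 0 fell with cold, against 7.29% and 7.56%. The macrophage markers' sum was 54.8 to 66.98 CPM in WT RT, 162 to 221 in KO RT, 74.4 to 81.4 in WT cold and 196 to 252 in KO cold, none at 0. Their part in the result was not tested. The WT fall of Fabp5 with cold (-0.25 ± 0.10, adjusted p = 0.046) was lost without WT RT replicate 2 or 3, or KO RT replicate 6, or WT cold replicate 1 or 2, or KO cold replicate 1 (-0.25 to -0.21).

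Of the membrane proteins, Cd36, the scavenger receptor that takes up long-chain fatty acids, had 1804, 2143 and 1991 CPM in WT RT, 1478, 2081 and 1483 in KO RT, 2428, 2235 and 2272 in WT cold and 2034, 1894 and 1421 in KO cold. The groups overlapped at room temperature and not in the cold. It was 1.30-fold lower in KO in the cold (log2 -0.37 ± 0.14, adjusted p = 0.035), a call lost without WT cold replicate 1, 2 or 3, or KO cold replicate 3 (-0.39 to -0.24) and turned to 0.07 by library totals alone. Without KO RT replicate 5 it was also lower in KO at room temperature (-0.42). Macrophages and endothelial cells also make Cd36, and their part in the result was not tested.

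The Slc27a transporters responded to cold in opposite directions in WT. Slc27a1, the transporter FATP1, had 176, 171 and 192 CPM in WT RT and 70.9, 76.1 and 103 in WT cold, with no overlap. In KO it had 155, 117 and 135 CPM at room temperature and 121, 133 and 147 in the cold, which overlapped. It fell with cold in WT 2.16-fold (log2 -1.11 ± 0.13, adjusted p = 7.38e-06), against -0.02 ± 0.13 in KO (adjusted p = 0.94), a difference of 1.09 ± 0.19 (adjusted p = 9.16e-04). In the cold it was 1.60-fold higher in KO (adjusted p = 5.13e-04). At room temperature it was 1.32-fold lower in KO (adjusted p = 0.022), a call lost without WT RT replicate 3, or KO RT replicate 5 or 6 (-0.40 to -0.31).

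Slc27a2, which couples uptake to activation of very long chains, had 545, 432 and 338 CPM in WT RT and 698, 708 and 684 in WT cold. In KO it had 267, 366 and 353 CPM at room temperature and 319, 343 and 333 in the cold. The 3 WT cold pools lay above all others. It rose 1.59-fold with cold in WT (log2 0.67 ± 0.14, adjusted p = 0.0015) and had a log2 change of 0.01 ± 0.14 in KO (adjusted p = 0.97). Between cold groups it was 2.10-fold lower in KO (adjusted p = 2.68e-05). The difference of the responses (-0.66 ± 0.20, adjusted p = 0.03) missed the threshold without any 1 library other than WT RT replicate 1 and KO RT replicate 4 (-0.68 to -0.48), and the room-temperature difference (-0.41 ± 0.14, adjusted p = 0.032) without WT RT replicate 1 or 2, or KO RT replicate 4 (-0.43 to -0.23).

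Of the 5 activating enzymes, 2 were lower in KO at room temperature, 3 were lower and 1 higher in the cold, and with cold 2 rose and 1 fell in WT while 1 rose in KO. Library totals alone gave 1 lower and 1 higher at room temperature and 2 lower and 2 higher in the cold. Their summed level was 3891 to 5329.7 CPM in WT RT, 3475 to 3857 in KO RT, 6590.2 to 6914 in WT cold and 2772 to 3366 in KO cold. Acsl1, the main long-chain acyl-CoA synthetase of adipocytes, had 4692, 3241 and 3324 CPM in WT RT and 5853, 6060.5 and 5918 in WT cold. In KO it had 2676, 3380.2 and 3011 CPM at room temperature and 2178, 2806 and 2871 in the cold. It rose 1.58-fold with cold in WT (log2 0.66 ± 0.14, adjusted p = 0.0011), against -0.21 ± 0.14 in KO (adjusted p = 0.36), a difference of -0.87 ± 0.20 (adjusted p = 0.0053). In the cold it was 2.27-fold lower in KO (adjusted p = 5.04e-06), while the groups overlapped at room temperature (adjusted p = 0.089).

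Acsl5, another long-chain synthetase, had 399.9, 466 and 391 CPM in WT RT, 707, 375 and 495 in KO RT, 553, 648 and 631 in WT cold and 477, 444 and 370.2 in KO cold. KO RT replicate 4 was the highest of all 12. The rise with cold in WT (0.54 ± 0.19, adjusted p = 0.032) was lost without WT RT replicate 1 or 3, or WT cold replicate 2 or 3 (0.49 to 0.52). The lower level in KO in the cold (-0.50 ± 0.19, adjusted p = 0.038) was lost without WT RT replicate 1, or WT cold replicate 2 or 3, or KO cold replicate 2 or 3 (-0.53 to -0.41). The difference of the responses (-0.83 ± 0.26, adjusted p = 0.04) was lost without any 1 library other than WT RT replicate 2 and KO RT replicates 4 and 5 (-0.91 to -0.74). Without KO RT replicate 5, Acsl5 was higher in KO at room temperature (0.52) and fell with cold in KO (-0.48).

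Acsl3, a synthetase of the endoplasmic reticulum and lipid droplets, moved against Acsl1. It had 56.2, 46.9 and 45.5 CPM in WT RT and 25.8, 28.8 and 29.5 in WT cold, with 39.5, 42.96 and 44.6 in KO RT and 45.4, 43.1 and 53.6 in KO cold. The 3 WT cold pools were below all others. It fell 1.77-fold with cold in WT (log2 -0.82 ± 0.10, adjusted p = 6.76e-06), against 0.16 ± 0.10 in KO (adjusted p = 0.31), a difference of 0.98 ± 0.14 (adjusted p = 2.54e-04). Between cold groups it was 1.69-fold higher in KO (adjusted p = 1.42e-05).

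Acsl4, which favours arachidonic acid, had 51.5, 46.8 and 44.1 CPM in WT RT, 28.2, 37.5 and 33.9 in KO RT, 52.2, 47.9 and 51.99 in WT cold and 46.5, 44.1 and 45.2 in KO cold. It was 1.43-fold lower in KO at room temperature (adjusted p = 5.23e-04) and rose 1.36-fold with cold in KO (adjusted p = 0.0051). Acsm3, a medium-chain acyl-CoA synthetase, had 130.2, 126 and 86.8 CPM in WT RT and 23.8, 21.4 and 22.2 in KO RT. In the cold it had 106, 128 and 93.6 CPM in WT and 24.3, 17.3 and 25.7 in KO. It was 5.09-fold lower in KO at room temperature (log2 -2.35 ± 0.19, adjusted p = 3.45e-06) and 4.87-fold lower in the cold (-2.28 ± 0.19, adjusted p = 2.06e-06). Its log2 change with cold was -0.07 ± 0.18 in WT and -0.0024 ± 0.18 in KO, neither past the threshold.

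**Figure D2:**
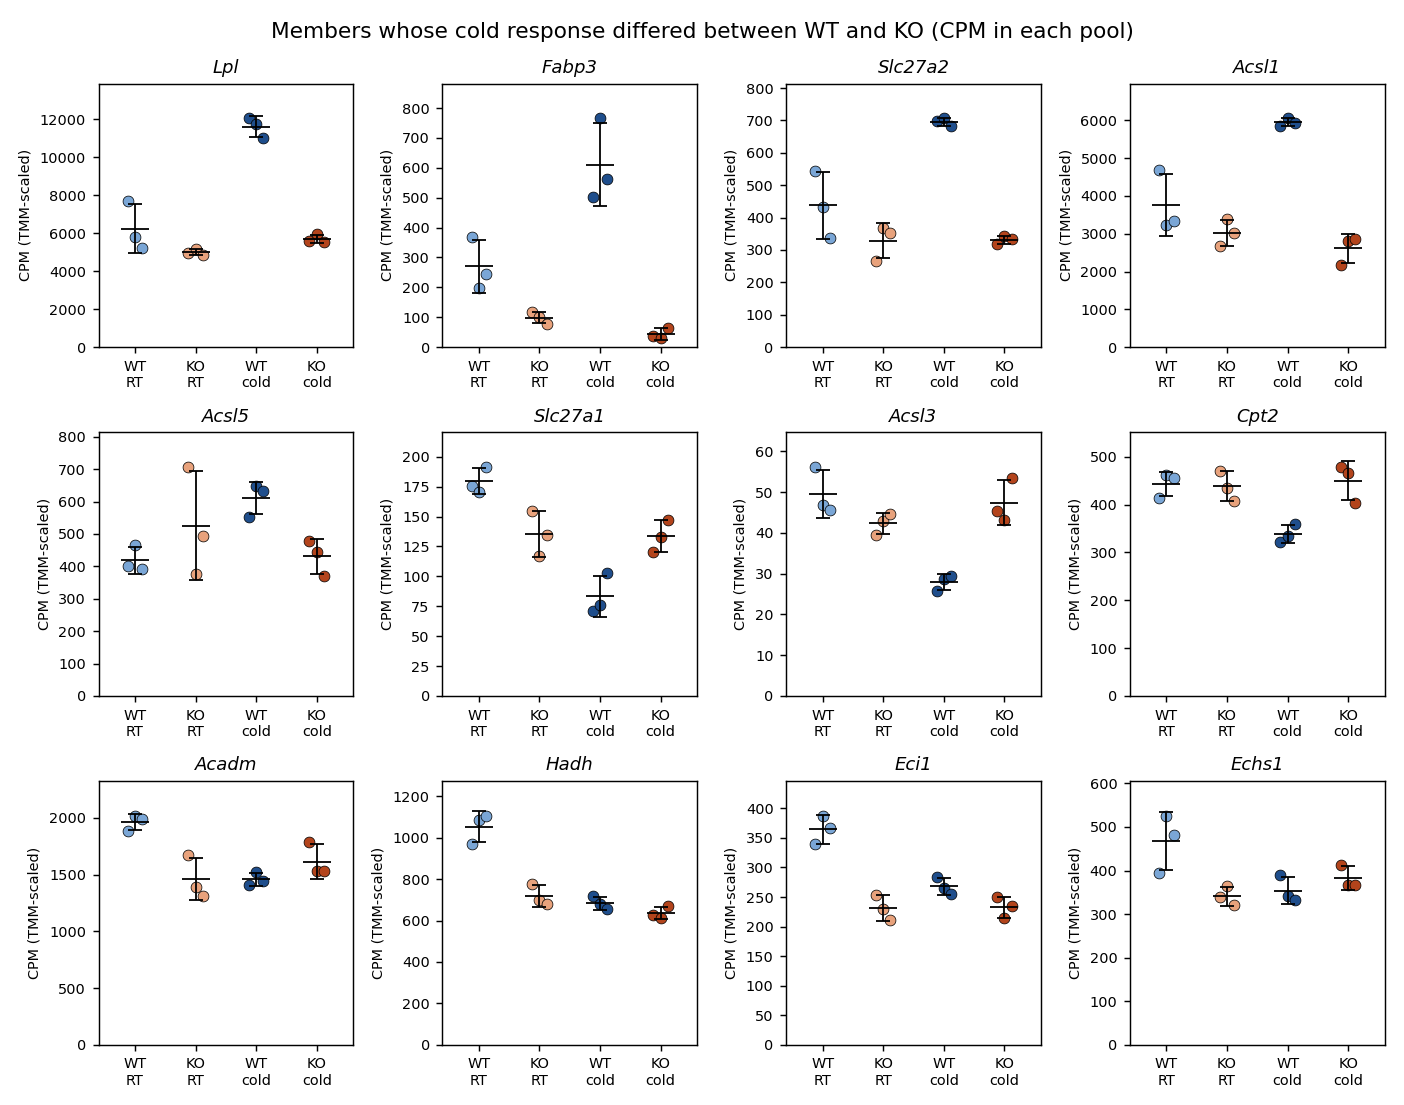
CPM scaled by TMM (y axis, from 0) in each of the 3 pools per group (points) with the mean and SD (bars), for the 12 members whose cold response differed between genotypes. For Lpl, Slc27a2 and Acsl1 the 3 WT cold pools lie above all others, and for Slc27a1, Acsl3 and Cpt2 below all others.

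In the carnitine shuttle, Cpt1a, the liver form of the outer-membrane carnitine palmitoyltransferase, had 12.8, 14.4 and 14.02 CPM in WT RT and 15.7, 16.4 and 16.01 in KO RT. After cold exposure it had 11.4, 12.3 and 13.4 CPM in WT and 16.97, 15.3 and 15.1 in KO. It was 1.28-fold higher in KO in the cold (log2 0.36 ± 0.09, adjusted p = 0.0045), and 0.22 ± 0.09 at room temperature missed the threshold (adjusted p = 0.068). Cpt1b, the muscle form that brown fat is known to use, was listed at 0 in all 12 libraries, so the ratio of the 2 forms could not be given. Cpt2, the inner-membrane enzyme, had 415, 461 and 455 CPM in WT RT, 471, 435 and 408 in KO RT, 323, 335 and 358 in WT cold and 479, 467 and 404 in KO cold. It fell 1.31-fold with cold in WT (log2 -0.39 ± 0.09, adjusted p = 0.0022), against 0.04 ± 0.09 in KO (adjusted p = 0.83), and in the cold it was 1.33-fold higher in KO (adjusted p = 0.0014). The difference of the responses (0.43 ± 0.13, adjusted p = 0.024) was lost without WT RT replicate 2 or 3, or KO RT replicate 6, or WT cold replicate 1 or 2, or KO cold replicate 1 or 2 (0.38 to 0.43).

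Of the 11 mitochondrial oxidation genes, 9 were lower in KO at room temperature and 0 higher by edgeR's quasi-likelihood test (0 higher also at an unadjusted p below 0.05, and with DESeq2 or voom), with a median log2 fold change of -0.43; Hadha and Decr1 were not called. Without the 2 muscle-rich libraries 6 of the 11 were lower at room temperature, and with library totals alone 3 were. In the cold 5 of 11 were lower, with a median of -0.20, and library totals alone turned all 5 to values above 0 (0.01 to 0.20) and called 0 lower and 5 higher in KO: Decr1 (0.58), Acadm (0.59), Echs1 (0.55), Hadha (0.37) and Hadh (0.33). That scaling called 7881 of all 15208 genes higher and 1073 lower in the cold. With cold 5 fell and none rose in WT, against 23.2% and 23.0% of all genes. None was called in KO by edgeR's quasi-likelihood test, against 14.8% of all genes. At an unadjusted p below 0.05 edgeR also gave 0 of the 11 risen in WT and 0 changed in KO. In KO, DESeq2 called 0 and limma's voom 2, both higher with cold. The acyl-CoA dehydrogenases catalyse the first step of each cycle and differ by chain length. Acadl, for long chains, had 2089, 1959 and 1988 CPM in WT RT and 1592, 1572 and 1473 in KO RT. After cold the pools had 1974, 2176 and 2075 CPM in WT and 1600.5, 1595 and 1632 in KO, 1.30-fold and 1.29-fold lower in KO at the 2 temperatures (adjusted p = 0.0018 and 0.0015).

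Acadvl, for very long chains, had 1656, 1776 and 1893 CPM in WT RT, 1419.6, 1297 and 1279 in KO RT, 1865, 1855 and 1641 in WT cold and 1372, 1445 and 1446 in KO cold. Acads, for short chains, had 273, 312 and 336 CPM in WT RT, 231, 229 and 216 in KO RT, 319.9, 288 and 289 in WT cold and 227, 237 and 234 in KO cold. The KO pools of both genes were below the WT pools at each temperature. Acadvl was 1.33-fold lower at room temperature and 1.26-fold lower in the cold, and Acads 1.37-fold and 1.28-fold (adjusted p = 0.0018, 0.0058, 7.35e-04 and 0.0025). None of Acadl, Acadvl and Acads passed the test for cold in either genotype. Acadm, for medium chains, differed from them. It had 1885, 2019 and 1988 CPM in WT RT, 1672, 1394 and 1316 in KO RT, 1406, 1521 and 1444 in WT cold and 1789.7, 1528 and 1528 in KO cold. The WT RT pools were above all 9 others. It was 1.34-fold lower in KO at room temperature (adjusted p = 0.0034) and fell 1.35-fold with cold in WT (adjusted p = 0.0024). Those 2 comparisons share the WT RT pools. The difference of the cold responses was 0.58 ± 0.14 (adjusted p = 0.0088).

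Hadh, the short-chain hydroxyacyl-CoA dehydrogenase, Eci1, the enoyl-CoA isomerase, and Echs1, the short-chain enoyl-CoA hydratase, had the calls that Acadm had. Hadh had 971, 1085 and 1107 CPM in WT RT, 778, 701 and 678 in KO RT, 718, 681 and 654 in WT cold and 628, 612 and 669 in KO cold. It was 1.47-fold lower in KO at room temperature and fell 1.54-fold with cold in WT, with a log2 change of -0.18 ± 0.09 in KO and a difference of 0.45 ± 0.13 (adjusted p = 0.016). Eci1 had 339, 388 and 367 CPM in WT RT, 254, 229.6 and 210.4 in KO RT, 283, 266 and 255 in WT cold and 249.9, 214 and 234 in KO cold, a difference of responses of 0.45 ± 0.13 (adjusted p = 0.02) that was lost without WT RT replicate 2, or KO RT replicate 6, or KO cold replicate 1 (0.39 to 0.41). Echs1 had 394, 526 and 482 CPM in WT RT, 339, 364 and 320.1 in KO RT, 389, 342 and 331 in WT cold and 414, 367 and 367 in KO cold, a difference of 0.57 ± 0.15 (adjusted p = 0.012). In all 4 genes the highest group mean was that of WT RT. Without the muscle-rich pools, WT RT replicate 2 and KO RT replicate 6, these differences were 0.49 for Acadm, 0.38 for Hadh, 0.34 for Eci1 and 0.43 for Echs1, none past the threshold.

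Acaa2, the mitochondrial thiolase that ends the cycle, had 1176, 1455 and 1386 CPM in WT RT, 808, 898 and 794 in KO RT, 1158, 1114 and 1002 in WT cold and 845, 779 and 816 in KO cold. It was 1.61-fold lower in KO at room temperature (log2 -0.68 ± 0.10, adjusted p = 4.72e-05) and 1.34-fold lower in the cold (adjusted p = 0.0017), the latter turned to 0.01 by library totals alone. Its fall with cold in WT (-0.29 ± 0.10, adjusted p = 0.02) was lost without WT RT replicate 2 or 3, or WT cold replicate 3 (-0.27 to -0.23). Decr1, which handles unsaturated chains, had 511 to 670.2 CPM over the 12 pools and was not called in any comparison of edgeR's main fit. Its difference of cold responses was called by DESeq2 (0.33) and voom (0.38). In edgeR it was called with a stricter filter (0.36), the muscle covariate (0.40) or library totals alone (0.56). Library totals alone also called Decr1 higher in KO in the cold (0.58) and lower with cold in WT (-0.37). Voom and the muscle covariate each called it lower in KO at room temperature (-0.26). Voom called it higher with cold in KO (0.21).

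Hadha and Hadhb, the alpha and beta subunits of one enzyme with 85 bases between their starts, differed in KO. Hadha had 1719, 1980.2 and 1981 CPM in WT RT, 1957, 1899.9 and 1798 in KO RT, 1908, 2013 and 1901 in WT cold and 1896, 1843 and 1794 in KO cold, with log2 fold changes of -0.01 ± 0.09 and -0.07 ± 0.09 in KO (adjusted p = 0.96 and 0.5). Hadhb had 1308, 1503 and 1457 CPM in WT RT, 1112, 1172 and 1034 in KO RT, 1466, 1544 and 1424 in WT cold and 1320.1, 1209 and 1227 in KO cold. It was 1.29-fold lower in KO at room temperature (adjusted p = 0.0041) and 1.18-fold lower in the cold (adjusted p = 0.032), the second call being lost without WT cold replicate 1 or 2, or KO cold replicate 2 or 3 (-0.25 to -0.20). The values in the cold with library totals alone were 0.37 for Hadha, then called higher, and 0.20 for Hadhb. The log2 ratio of Hadhb to Hadha counts within a library, which no scaling between libraries alters, was -0.39, -0.40 and -0.44 in WT RT, -0.38, -0.38 and -0.42 in WT cold, -0.82, -0.70 and -0.80 in KO RT and -0.52, -0.61 and -0.55 in KO cold. All 6 KO pools were below all 6 WT pools. This ratio was picked after its values were seen and is given without a test.

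**Figure D3:**
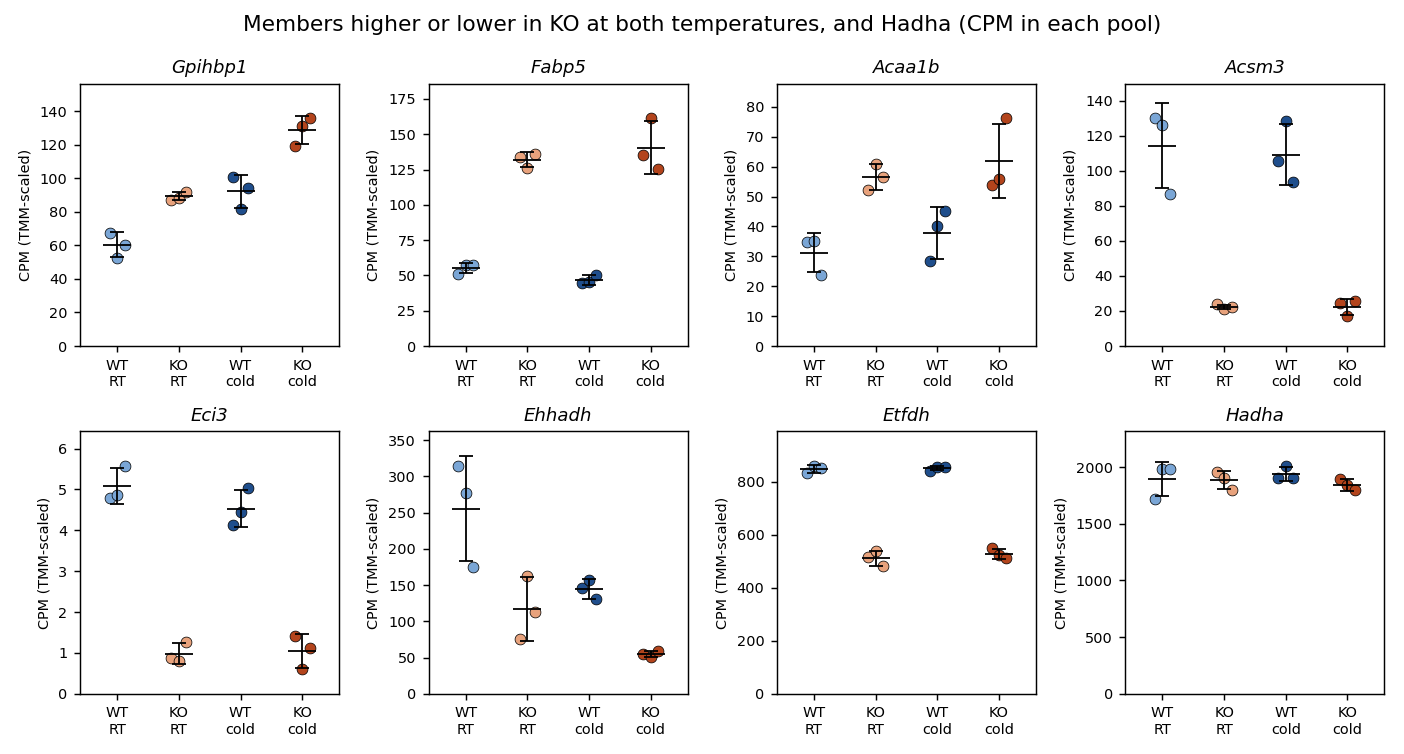
CPM scaled by TMM (y axis, from 0) in each of the 3 pools per group (points) with the mean and SD (bars) for 7 members called the same way in KO at both temperatures, and Hadha, called in neither. Gpihbp1, Fabp5 and Acaa1b lie higher in KO, Acsm3, Eci3, Ehhadh and Etfdh lower, at each temperature.

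Of the 7 members listed under peroxisomal oxidation, 5 were lower and 1 higher in KO at room temperature, and 4 lower and 1 higher in the cold. With cold 4 fell in WT and 2 in KO, against 23.2% and 7.56% of all genes. Library totals alone gave 3 lower and 1 higher at room temperature, and 2 lower and 2 higher in the cold. Without the 2 muscle-rich libraries 2 were lower at room temperature, 2 fell with cold in WT and 0 in KO. Library totals alone turned Eci2 (0.0046) and Hsd17b4 (0.10) in the cold. Ehhadh, the bifunctional enzyme of the classical peroxisomal pathway, had 315, 277 and 175 CPM in WT RT, 75.7, 163 and 113 in KO RT, 146, 157 and 131 in WT cold and 55.5, 50.4 and 58.9 in KO cold. It was 2.18-fold lower in KO at room temperature (log2 -1.12 ± 0.28, adjusted p = 0.012) and 2.63-fold lower in the cold (-1.40 ± 0.29, adjusted p = 0.003). It was lower with cold in WT (-0.82 ± 0.28, adjusted p = 0.039), and the KO change was -1.09 ± 0.28 (adjusted p = 0.034). The WT call was lost without any 1 library other than WT RT replicate 3 and KO RT replicates 4 and 5 (-0.89 to -0.64), and the KO call without WT RT replicate 2, or KO RT replicate 5 or 6, or WT cold replicate 2 or 3, or KO cold replicate 1, 2 or 3 (-1.15 to -0.78).

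Eci3, a peroxisomal enoyl-CoA isomerase at a low level, had 4.79, 4.86 and 5.58 CPM in WT RT and 0.876, 0.794 and 1.27 in KO RT. In the cold it had 4.12, 4.45 and 5.03 CPM in WT and 1.42, 0.597 and 1.11 in KO. It was 5.19-fold lower in KO at room temperature (log2 -2.37 ± 0.25, adjusted p = 2.50e-06) and 4.33-fold lower in the cold (-2.12 ± 0.25, adjusted p = 3.55e-06), without a call for cold. Its near relative Eci2 had 147, 129.7 and 134 CPM in WT RT and 92.3, 75.6 and 77.99 in KO RT, 1.67-fold lower, with a 1.35-fold lower level in the cold and a 1.24-fold fall with cold in WT (adjusted p = 9.22e-06, 6.72e-04 and 0.0079).

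Hsd17b4, the multifunctional enzyme for branched and very long chains, had 309.6, 329 and 337 CPM in WT RT, 269, 269.6 and 241 in KO RT, 274, 273 and 295 in WT cold and 219, 232 and 216 in KO cold. It was 1.25-fold lower in KO at room temperature and 1.26-fold lower in the cold (adjusted p = 0.0047 and 0.0024). Its WT response to cold (-0.21 ± 0.08, adjusted p = 0.042) was lost without WT RT replicate 2 or 3, or WT cold replicate 1 or 2, or KO cold replicate 2 (-0.21 to -0.19). Ech1, a dienoyl-CoA isomerase, had 785, 879.6 and 928 CPM in WT RT, 696, 690.2 and 625 in KO RT, 849, 803 and 742 in WT cold and 682, 681 and 759 in KO cold. It was 1.29-fold lower in KO at room temperature (adjusted p = 0.0049) and had no other call in edgeR's main fit. That call was lost with library totals alone (-0.16), which called Ech1 lower with cold in WT (-0.32). Voom called it lower in KO in the cold (-0.20).

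The peroxisomal thiolase copies Acaa1a and Acaa1b parted. Acaa1b had 34.8, 35.05 and 23.7 CPM in WT RT, 52.2, 60.8 and 56.5 in KO RT, 28.3, 40.1 and 45.2 in WT cold and 53.9, 55.8 and 76.4 in KO cold, 1.81-fold and 1.64-fold higher in KO (adjusted p = 0.0074 and 0.014). Acaa1a had 53.3, 58.6 and 54.5 CPM in WT RT, 57.2, 49.6 and 50.4 in KO RT, 39.2, 37.6 and 40.4 in WT cold and 43.5, 43.7 and 45.5 in KO cold. It fell 1.42-fold with cold in WT (adjusted p = 6.07e-05), and its fall in KO (-0.24 ± 0.08, adjusted p = 0.043) was lost without any 1 library other than WT RT replicate 2 and KO RT replicate 5 (-0.27 to -0.18). These are near-identical copies, reads that align to more than 1 place were not counted (26.6% to 30.2% of alignments), and the split between them is uncertain.

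In electron transfer, Etfdh, which hands electrons to ubiquinone, had 833, 861 and 851 CPM in WT RT and 516, 538 and 482 in KO RT. After cold exposure it had 842, 856 and 855 CPM in WT and 548, 524 and 513 in KO. It was 1.66-fold lower in KO at room temperature (log2 -0.73 ± 0.08, adjusted p = 3.32e-06) and 1.61-fold lower in the cold (-0.69 ± 0.08, adjusted p = 2.86e-06), with a log2 change with cold of 0.00 ± 0.08 in WT and 0.05 ± 0.08 in KO. Its value in the cold with library totals alone was -0.25 and missed the threshold (adjusted p = 0.064). Etfa, the alpha subunit of the flavoprotein, had 652, 899 and 852 CPM in WT RT, 577, 539.9 and 446 in KO RT, 712, 659 and 587 in WT cold and 681, 559.8 and 539.5 in KO cold. It was 1.54-fold lower in KO at room temperature (adjusted p = 0.0015) and overlapped between genotypes in the cold (adjusted p = 0.39). Its room-temperature value with library totals alone was -0.42 (adjusted p = 0.061). The difference of its cold responses (0.48 ± 0.19, adjusted p = 0.07) missed the threshold in edgeR and passed it in DESeq2 (0.48) and voom (0.61).

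**Figure D4:**
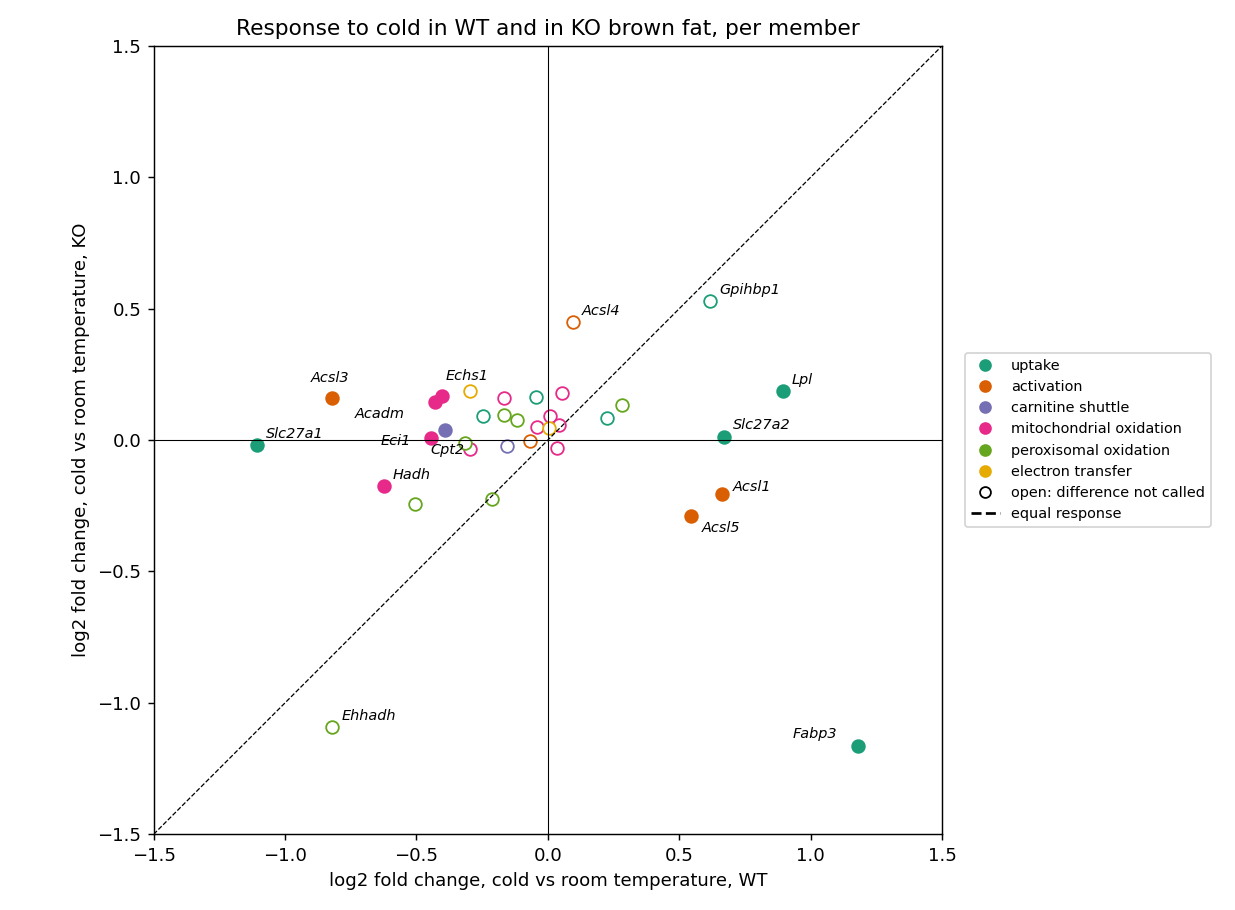
Log2 fold change with cold in WT (x axis) and in KO (y axis) for each of the 35 members, coloured by step. Filled points are the 12 members whose difference of responses was called, and the dashed line marks equal responses. Gpihbp1 and Ehhadh lie near the line, and Lpl, Slc27a2, Slc27a1 and Acsl3 lie near 0 on the y axis.

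Ratios within a library compare members without scaling between libraries. The log2 ratio of Fabp3 to Fabp4 counts was -4.41, -5.33 and -5.06 in WT RT, -3.99, -3.30 and -3.75 in WT cold, -5.97, -5.92 and -6.18 in KO RT and -7.56, -7.96 and -6.74 in KO cold. KO pools were lower than WT pools at both temperatures, by -2.42 on average (exact 2-sided permutation test within temperature, p = 0.005, adjusted p = 0.02 over 8 tests). The ratio of Fabp5 to Fabp4 was higher in KO by 1.64 (exact permutation p = 0.005, adjusted p = 0.02), with -7.50 to -7.10 over the 6 WT pools and -5.81 to -5.37 over the 6 KO pools. The smallest p that this design of 400 arrangements can give is 0.005. The ratio of Slc27a2 to Slc27a1 was 3.30, 3.22 and 2.74 in WT cold and 0.79 to 1.65 in the other 9 pools. Averaged over the other factor it differed by -0.88 with genotype (exact permutation, adjusted p = 0.096) and 0.93 with cold (adjusted p = 0.09). Acsl5 to Acsl1 was higher in KO by 0.63 (exact permutation p = 0.025, adjusted p = 0.067), which missed the threshold. Leaving out 1 library at a time gave 0.47 to 0.78 (exact permutation, adjusted p = 0.013 to 0.12), the highest without KO RT replicate 5.

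**Figure D5:**
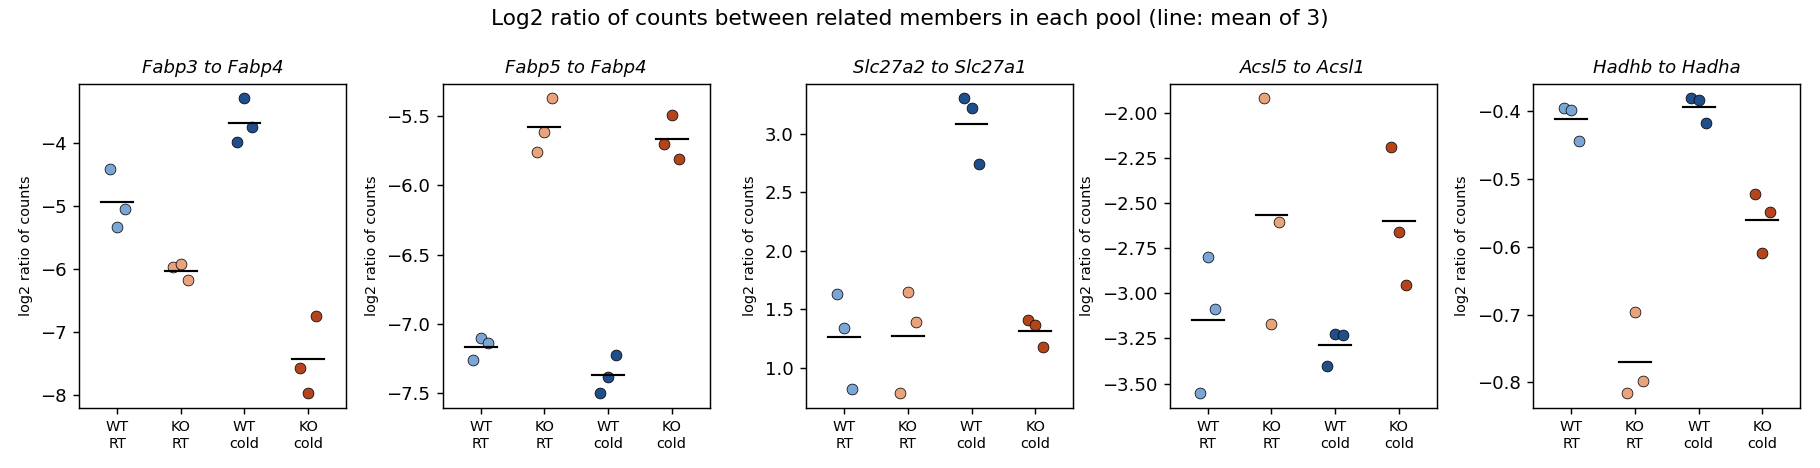
Log2 ratio of counts (y axis) between related members in each pool, with the mean of the 3 pools as a line. The Fabp3 to Fabp4 ratios of KO lie below those of WT at each temperature, the Fabp5 to Fabp4 ratios above, and the Hadhb to Hadha ratios below.

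The other genes of the pathway were 81 genes in 8 lists, also chosen with earlier results of these data known. The 68 of them that were tested gave 42 lower and 8 higher in KO at room temperature, and 35 lower and 12 higher in the cold. Of all genes, 21.0% were lower and 19.3% higher at room temperature, and 27.8% and 25.9% in the cold. With cold 27 fell and 8 rose in WT, and 11 fell and 2 rose in KO. Of all genes, 23.2% fell and 23.0% rose in WT, and 7.56% and 7.29% in KO. With library totals alone, 27 were lower and 11 higher at room temperature and 20 lower and 27 higher in the cold. That scaling moved the calls of all genes the same way. Of 15208 genes it called 1267 lower and 4739 higher at room temperature, and 1073 lower and 7881 higher in the cold. Beside Cpt2, the carnitine acylcarnitine carrier Slc25a20 had 480.4, 496 and 475 CPM in WT RT and 326, 281 and 272 in KO RT, 1.65-fold lower and 1.86-fold lower in the cold (adjusted p = 7.40e-06 and 4.75e-07). The carnitine importer Slc22a5 was 1.91-fold lower at room temperature and 1.97-fold lower in the cold (adjusted p = 2.81e-06 and 8.52e-07). Crot, the peroxisomal carnitine octanoyltransferase, had 29.6, 49.4 and 39.9 CPM in WT RT, 23.04, 19.3 and 17.7 in KO RT, 10.5, 10.7 and 13.3 in WT cold and 22.5, 19.4 and 16.5 in KO cold, a difference of cold responses of 1.74 ± 0.26 (adjusted p = 7.06e-04). In all, 4 of 6 other carnitine genes were lower and 2 higher in KO in the cold.

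Abcd2, a peroxisomal importer of very long chains, had 55.6, 83.5 and 81.8 CPM in WT RT, 74.5, 69.6 and 64.6 in KO RT, 14.2, 15.02 and 22.05 in WT cold and 62.1, 57.6 and 57.4 in KO cold, 3.45-fold higher in KO in the cold (adjusted p = 7.35e-06). Slc27a4, the transporter FATP4, rose 1.59-fold with cold in WT, with a log2 change of -0.31 ± 0.09 in KO, a difference of -0.99 ± 0.13 (adjusted p = 1.29e-04). Slc52a2, a riboflavin transporter, rose 1.65-fold in WT, with a log2 change of -0.02 ± 0.10 in KO (difference -0.74 ± 0.14, adjusted p = 0.0012). Flad1, which makes the cofactor FAD for the acyl-CoA dehydrogenases, was 1.63-fold lower in KO at room temperature and 2.14-fold lower in the cold (adjusted p = 1.49e-04 and 1.35e-06).

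Of the 9 nuclear receptors and coactivators listed for fatty acid oxidation, 5 were lower and 1 higher in KO at room temperature and 7 lower in the cold; with library totals alone, 3 were lower and 2 higher at room temperature and 6 lower and 2 higher in the cold. Esrra, the estrogen-related receptor alpha, had 147, 161 and 182 CPM in WT RT, 122, 111 and 115 in KO RT, 221, 227 and 227 in WT cold and 96.2, 111 and 108 in KO cold. It rose 1.38-fold with cold in WT (adjusted p = 4.42e-04) and was 2.14-fold lower in KO in the cold (adjusted p = 1.05e-07), but with library totals alone the WT rise (0.26) missed the threshold. Esrrg, the gamma form, was 1.99-fold lower in KO at room temperature and 2.44-fold lower in the cold, and fell with cold in both genotypes (1.65-fold and 2.03-fold, adjusted p = 2.52e-06 and 1.53e-06). Esrrb rose 7.04-fold with cold in WT, from 0.959, 1.31 and 1.80 to 8.36, 11.1 and 9.65 CPM, with a log2 change of 0.48 ± 0.29 in KO (difference -2.33 ± 0.41, adjusted p = 0.0011). Ppargc1b, a coactivator of these receptors, was 2.38-fold lower at room temperature and 2.41-fold lower in the cold in KO (adjusted p = 1.05e-06 and 4.66e-07), with no call for cold.

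Of the 37 members, 15 share exonic bases with another annotated gene, and in 6 these make up over 10% of the exonic length: Etfb (58.2%), Acadvl (42.9%, Dvl2), Acsm3 (39.7%, Eri2), Fabp3 (19.6%, Zcchc17 and Gm10570), Acaa1b (11.4%, Dlec1) and Slc27a2 (11.2%, Gm26697). Apart from Etfb these partners lie on the opposite strand. The counting was by the reverse strand per the file labels and left 1.64% to 2.26% of alignments without a feature.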

How the data were processed

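The 12 libraries were made from pooled total RNA, and the authors deposited read counts per gene, one table per library, unnormalized. Per the submitters' processing notes, STAR, HTSeq and GRCm38 were used, with versions not given in the sources used here. The members and all gene lists were chosen with earlier results of these data known. Rows that name no gene (no feature, 1.64% to 2.26%; ambiguous, 1.07% to 1.37%) were left out. Counts were tested with edgeR 4.0.16 in R 4.3.3 (filterByExpr, TMM factors of 0.799 to 1.18, robust quasi-likelihood fit, 1 model with 4 groups), which left 15208 genes, adjusted by Benjamini-Hochberg. CPM values are scaled by TMM. Fold changes used a prior count of 0.125. The fitting code was tested on simulated data. Any member may be named, and from each other list up to 4 genes with the smallest p. Cdk7, Ucp1 and marker lists were always reported. Ratios of counts within a library were compared by exact permutation of genotype within temperature, or of temperature within genotype. Alternatives were DESeq2 1.42.0 and limma 3.58.1 (voom), other scalings and filters, leaving out libraries, a muscle covariate and the replicate number as a block. Sampling noise did not account for replicate spread in any pair (chi-square per degree of freedom 11.3 to 98.5), so no library was counted as a duplicate. Replicates are separate pools by their labels.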

Additional observations from a re-analysis of the deposited data

Results flagged for a closer look

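The cold response differed between genotypes, by the interaction term of edgeR's quasi-likelihood fit, for 12 of 35 members, against 23.5% of all genes (10.6% positive and 12.9% negative). The difference (KO minus WT, log2) was negative for 5: -2.34 for Fabp3, -0.87 for Acsl1, -0.83 for Acsl5, -0.71 for Lpl and -0.66 for Slc27a2. It was positive for 7: 1.09 for Slc27a1, 0.98 for Acsl3, 0.58 for Acadm, 0.57 for Echs1, 0.45 for Hadh, 0.45 for Eci1 and 0.43 for Cpt2. Leaving out any 1 library kept the calls of Lpl, Acsl1, Fabp3, Slc27a1, Acsl3, Acadm, Hadh and Echs1. Without the 2 muscle-rich libraries those of Lpl, Acsl1, Fabp3, Slc27a1 and Acsl3 were kept, and the other 7, among them Acadm, Hadh and Echs1, were lost. All-gene calls fell as well, from 1614 positive and 1967 negative to 840 and 1063.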

How the results depend on the processing

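For 175 results, 3885 values were recomputed under alternatives. Of these, 3614 stayed on the same side of the threshold, 189 lost the call, 70 gained one and 12 reversed. The 3614 kept their direction where called. A change of sign was not counted where neither the main fit nor the alternative gave a call. The reversals all arose in the cold with library totals as the only scaling: 0.071 for Cd36, 0.32 for Fabp4, 0.27 for Acsl4, 0.11 for Acadvl, 0.074 for Acadl, 0.075 for Acads, 0.37 for Hadha, 0.20 for Hadhb, 0.33 for Hadh, 0.014 for Acaa2, 0.0046 for Eci2 and 0.10 for Hsd17b4. At room temperature that scaling gave 9 members below WT and 5 above it, in the cold 7 and 15, and 13 positive and 3 negative differences of cold responses. Of all 15208 genes it gave 1267 below and 4739 above at room temperature, and 1073 and 7881 in the cold. The all-gene differences were 2388 positive and 711 negative. Without the 2 muscle-rich libraries 13 members were lower at room temperature, 0 fell with cold in KO, 2 differences were positive and 3 negative, and the Fabp3 to Fabp4 and Fabp5 to Fabp4 differences were -2.48 and 1.61, with an adjusted exact permutation p of 0.0667, where 120 arrangements allow no p below 0.0167. The members that fell with cold in KO numbered 1 with median-ratio size factors, 1 with a muscle covariate, 4 with DESeq2 and 0 with only the libraries compared. Voom gave 5 that rose with cold in KO and 14 positive differences. Leaving out the mitochondrially encoded genes changed the call of none of the 175 results.

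Leaving out each library in turn gave 20 to 22 members below WT and 3 to 4 above it at room temperature, 14 to 18 and 7 to 8 in the cold, 4 to 6 risen and 9 to 13 fallen in WT, 2 risen and 0 to 2 fallen in KO, and 5 to 10 positive and 3 to 5 negative differences. The ratio differences with genotype ranged from -2.59 to -2.28 (Fabp3 to Fabp4), 1.59 to 1.69 (Fabp5 to Fabp4), -0.99 to -0.76 (Slc27a2 to Slc27a1) and 0.47 to 0.78 (Acsl5 to Acsl1). Those with cold ranged from -0.24 to 0.06, -0.19 to -0.09, 0.81 to 1.03 and -0.24 to 0.07. The cause of these changes was not tested.

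The labels do not state that the replicate numbers pair the pools. Correlations of same-numbered pools' deviations from their group mean were -0.306 to 0.229 over 9 pairs, and -0.316 to 0.376 for other pairs. Deviations within a group of 3 sum to 0 and KO RT was not included, so these values cannot exclude a pairing. With the replicate number as a block in the 9 libraries numbered 1 to 3, 6 members were higher and 16 lower in KO in the cold, and 5 rose and 11 fell with cold in WT. The KO RT pools, numbered 4 to 6, could not be blocked. The ratio of Cpt1a to Cpt1b could not be given. With 3 pools a group, small differences may be missed.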
